A study of Homo sapiens with 72 samples.

Results

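The TCP-1 ring complex (TRiC, also called CCT) was examined through the cytoplasmic mRNAs of its 8 subunit genes, TCP1, CCT2, CCT3, CCT4, CCT5, CCT6A, CCT7 and CCT8. The 8 members were found by symbol among the 44659 gene names of a count table. The set was selected on the level of CCT3 mRNA, which was far lower after CTU2 depletion in libraries harvested at the start of triptolide treatment, and the question was whether the other subunits moved with it. A level could be read for 7 of the 8 subunits. CCT8 had between 0 and 15 counts in every library and is described separately. The measured libraries were 72 QuantSeq libraries, which read the 3′ end of polyadenylated RNA, from A375, an established human melanoma cell line. There were 24 groups of 3 replicates, numbered in the labels, and nothing in the labels says that the replicates were separate cultures, so p-values measure the spread between these libraries.

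In the siRNA experiment, cells were transfected for 42 h with a pool of siRNAs against CTU2 (siCTU2) or with the control siRNA GL2 (siGL2). In the medium experiment, glutamine was left out of the medium (mQ) or supplied (pQ) for 18 h. All cells then received triptolide (25 µM), which blocks transcription, and this includes the 0 h libraries, which were harvested at once. The T arm received triptolide alone, and the TCHX arm also received cycloheximide (100 µg/ml), which blocks translation. Both arms were harvested at 0, 3 and 5 h. All 4 conditions therefore share the triptolide treatment, and no library came from untreated cells.

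TRiC is the cytosolic chaperonin of eukaryotes. It is built of stacked rings in which each of the paralogous subunits occupies its own place, and it folds actin, tubulin and many proteins with WD40 repeats in an ATP-dependent cycle. Prefoldin delivers unfolded chains to it, and phosducin-like proteins act as its co-factors. Each subunit is encoded by a gene of its own, on different chromosomes or far apart. In GRCh38, CCT3, which encodes the gamma subunit, lies on the minus strand of chromosome 1 (156308968 to 156367873). TCP1, the alpha subunit gene, lies on chromosome 6 (159778498 to 159789703, minus strand), and CCT2, the beta subunit gene, on chromosome 12 (69585426 to 69601570, plus strand). CCT4, the delta subunit gene, lies on chromosome 2 (61868085 to 61888671, minus strand), and CCT7, the eta subunit gene, on the same chromosome (73233420 to 73253021, plus strand). CCT5, the epsilon subunit gene, lies on chromosome 5 (10249929 to 10266389, plus strand), and CCT6A, a zeta subunit gene, on chromosome 7 (56051685 to 56063989, plus strand).

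The siRNA pool and the stretches of CCT3 that hold a seed match or the longest shared run are shown because CTU2 and CCT3 were both low in the same cells. Both siRNAs are listed by the study as the strand identical to the CTU2 mRNA, so the guide strand is the reverse complement of that strand. Capitals in the guides mark the seed, which is bases 2 to 8 counted from the 5′ end, and capitals in the CTU2 sites mark the bases facing it. Capitals in the CCT3 windows mark bases identical to the siRNA target site.
siCTU2#1 guide strand: uUGGUCAUgagcuugauag
siCTU2#1 target site in CTU2: ctatcaagctcATGACCAa
CCT3 window facing siCTU2#1: gaggCAttgTgATGACCAA
CCT3 second window facing siCTU2#1: aaAgaAAGgcgATGACCAg
siCTU2#2 guide strand: aAGUCCUUcauguucacgc
siCTU2#2 target site in CTU2: gcgtgaacatgAAGGACTt
CCT3 window with the longest run facing siCTU2#2: tgGTGgACATGAAGGAacT

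Both CTU2 sites are exonic and coding, the first in exon 8 of 15 (chr16:88713389-88713407, GRCh38, plus strand) and the second in exon 13 of 15 (chr16:88714907-88714925). The first CCT3 window lies in coding exon 4 of 14 (chr1:156334738-156334756, minus strand) and shares 11 of 19 bases with the site of siCTU2#1. It holds the 7 bases complementary to the seed and also the next base of the site, an 8-base match. The second CCT3 window lies in coding exon 14 (chr1:156309238-156309256) and also shares 11 of 19 bases, with the 7-base match only. The CCT3 window nearest to the site of siCTU2#2 lies in exon 13 (chr1:156310613-156310631), shares 14 of 19 bases and holds an unbroken run of 10, but CCT3 has no match to the seed of siCTU2#2. Among the 7 measurable subunits, CCT3 alone held the 8-base match to siCTU2#1, which is a count of letters in 1 transcript per gene. CCT8 also held it, in its coding sequence. Other matches lay in subunits that were not called lower. CCT5 had a window closer to the site of siCTU2#1, with a run of 10 bases and 5 mismatches, and CCT2, CCT5 and CCT7 each held a match to the seed of siCTU2#2. The 8-base match to siCTU2#1 was present in 7.45% of the 11676 genes searched, and the 7-base match to the seed of siCTU2#2 in 28.3%. A window that differed from the site of siCTU2#2 at no more than 5 bases was present in 7.52%.

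Libraries held 5987692 to 15534331 counts. Of the melanocyte lineage markers, 6 of 8 had a median above 1 CPM (counts scaled to the same total in every library), including SOX10 and MITF, while the pigment genes MLANA and TYR had a median near 0.2 CPM and were at 0 in 17 and 16 libraries. Summed over the 8 markers, the level ranged from 573 to 1266 CPM. Markers of other cell types set 3 libraries apart, all of replicate 3. One was labelled siCTU2 TCHX 5 h, another was of pQ cells at 0 h in the TCHX arm, and the last was of mQ cells at 5 h in the T arm. In these, 19896 to 20364 genes had counts, against 15507 to 17495 in the other 69. The summed level of 3 leukocyte markers in those 3 libraries was 63.5 to 64.4 CPM, against at most 0.759 CPM elsewhere. That of 3 keratinocyte markers was 6.48 to 6.69 CPM, against at most 1.22 CPM, and that of 3 fibroblast markers was 5.86 to 8.43 CPM, against 0.0714 to 6.45 CPM elsewhere. The part of this in the subunit values was not tested.

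The level of the targeted gene was first examined. CTU2, which encodes a subunit of the enzyme that thiolates the wobble uridine of some tRNAs, was at 2.95, 1.01 and 1.32 CPM in the siCTU2 T 0 h libraries and at 21.1, 22.0 and 24.2 CPM in the siGL2 ones. It was at 2.23, 1.96 and 1.12 CPM against 28.6, 29.9 and 25.3 CPM in the TCHX arm at 0 h. The groups did not overlap in either arm. One library went against its label. In siCTU2 TCHX at 5 h, CTU2 was at 0.203 and 0.168 CPM in replicates 1 and 2 and at 10.4 CPM in the library labelled replicate 3, which is also 1 of the 3 libraries with extra genes. Every CCT3 value that rests on this library is given with and without it.

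CCT3 was low in siCTU2 cells at every time and in both arms, the library against its label excepted. At 0 h in the T arm, which is the contrast that chose CCT3, its level was 45.1, 45.0 and 46.4 CPM in siCTU2 and 562, 550 and 543 CPM in siGL2. The log2 fold change was −3.60, and CCT3 ranked 11th from the lowest of 12292 genes, of which 36% were called in either direction at an adjusted p under 0.05. These values are a description and carry no test.

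The TCHX libraries at 0 h were not used in choosing CCT3 and gave the test. They share the siRNAs, the time and the replicate numbers with the T libraries that chose CCT3. A low CCT3 level was therefore likely in them once CCT3 had been chosen, and the p-value is not independent evidence of the fall. CCT3 was at 44.5, 37.0 and 46.0 CPM in siCTU2 against 562, 545 and 550 CPM in siGL2, so that every siCTU2 library was far below every siGL2 library. The fitted level fell 12.9-fold, to 7.73% of control (log2 fold change −3.69, SE 0.09, 95% interval −3.89 to −3.50, adjusted p = 5.14e-16 in edgeR's quasi-likelihood test, n = 3 per group). Of 12507 genes tested, 37.2% were called at an adjusted p under 0.05 and 18.9% were called lower, so a call was common, but only 7 genes had a lower log2 fold change than CCT3. In bulk RNA, fewer cells with the mRNA and less mRNA per cell cannot be told apart.

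**Figure D1:**
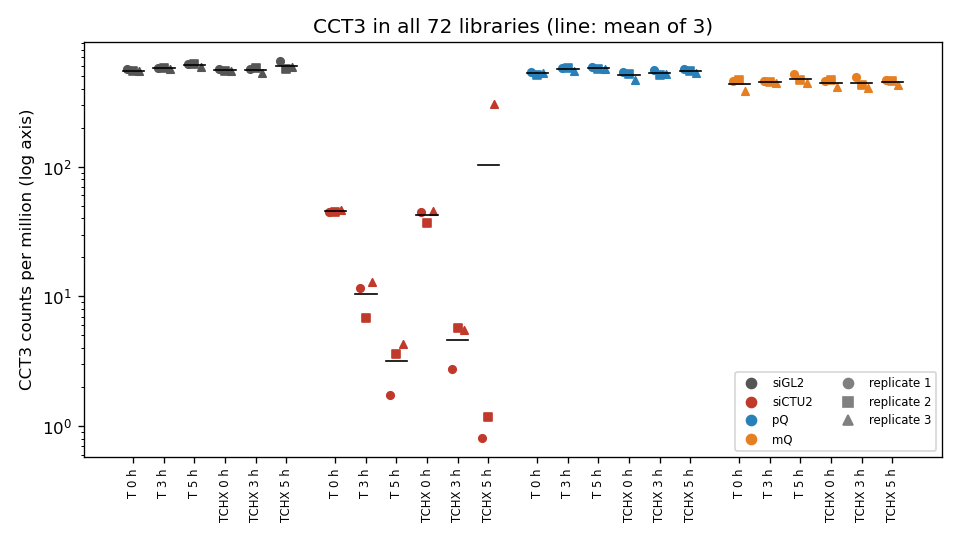
CCT3 level in CPM on a log axis in all 72 libraries, with 1 marker shape per replicate number and a line at the mean of each group of 3. The siCTU2 libraries sit between 0.811 and 46.4 CPM except the one against its label at 306.2 CPM, and the libraries of the other 3 conditions sit between 385 and 650 CPM.

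In the main fit, which had no replicate block, none of the other 6 measurable subunits was called in the TCHX arm at 0 h. Their log2 fold changes in siCTU2 against siGL2 were −0.06 for TCP1, −0.12 for CCT2, −0.13 for CCT4, 0.05 for CCT5, 0.01 for CCT6A and 0.02 for CCT7. Their 95% intervals together ran from −0.28 to 0.20, which leaves room for changes of up to that size. In the T arm, as a description, the 6 values lay between −0.07 (CCT7) and 0.04 (CCT2).

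CCT4 was the nearest to a call. Its level was 614, 669 and 599 CPM in siCTU2 and 703, 731 and 639 CPM in siGL2, and the groups overlapped, although each siCTU2 library was below the siGL2 library of the same number. With the replicate number as a block, which these libraries support, its log2 fold change of −0.13 was called (adjusted p = 0.0483, edgeR). The block changed the call of no other subunit.

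The summed CPM of the 6 other subunits was 3779 ± 120 (SD, n = 3) in siCTU2 and 3878 ± 187 in siGL2 in the TCHX arm at 0 h. The groups overlapped, although each siCTU2 sum (3863, 3832 and 3642 CPM) was below the siGL2 sum of the same number (3992, 3980 and 3663 CPM), and the difference was not tested. In the T arm it was 3822 ± 153 against 3817 ± 138. CCT3 therefore made up 0.957 to 1.25% of the summed CPM of the 7 subunits in the siCTU2 TCHX libraries and 12.1 to 13.1% in the siGL2 ones. QuantSeq counts 1 fragment per transcript end, so this share is one of counts and not of protein.

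**Figure D2:**
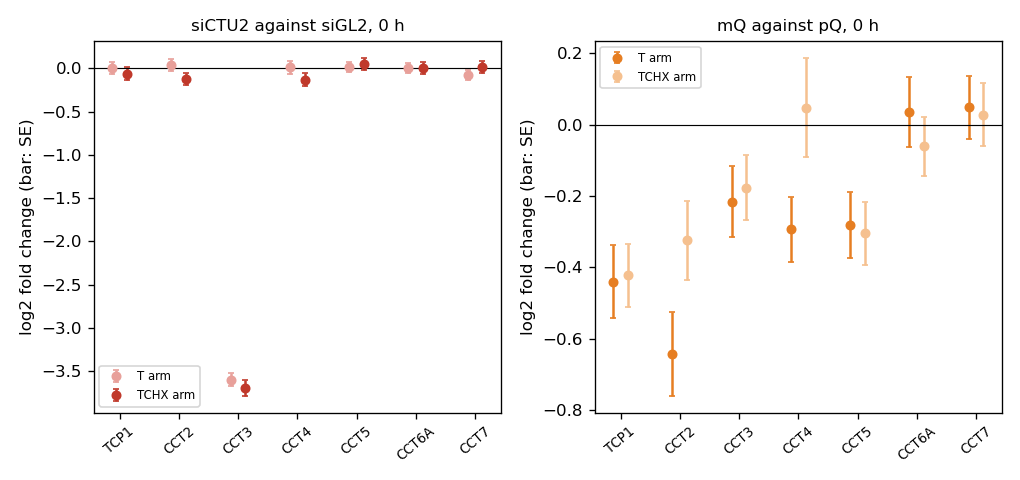
Log2 fold change of each measurable subunit at 0 h (y axis) in siCTU2 against siGL2 (left) and mQ against pQ (right, with its own scale), in the T and TCHX arms, with bars for 1 SE over 3 libraries per group. CCT3 sits at −3.60 and −3.69 on the left while the other 6 sit between −0.13 and 0.05, and on the right TCP1, at −0.44 and −0.42, is the subunit called in both arms.

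The change in each mRNA over the time course was then measured. Counts were scaled to genes that the study's rule calls stable (198 genes in the siRNA experiment, no subunit among them), since library totals are no scale once transcription is blocked. After 3 h in the T arm, CCT3 in siCTU2 changed by −2.47, −3.03 and −2.33 on the log2 scale, a mean of −2.61 ± 0.37 (SD, n = 3), which left 16.4% of its own 0 h level. In siGL2 it changed by −0.34, −0.31 and −0.34, a mean of −0.33 ± 0.02, which left 79.5%. The groups were far apart. The median over all genes was −0.55 in siCTU2 and −0.47 in siGL2, so that CCT3 stood well below the median in the first and slightly above it in the second.

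The TCHX arm gave the same picture from other libraries. CCT3 changed by −4.26, −3.002 and −3.42 in siCTU2 (mean −3.56 ± 0.64) and by −0.51, −0.25 and −0.53 in siGL2 (mean −0.43 ± 0.16), with medians over all genes of −0.33 and −0.49. The counts behind the siCTU2 values at 3 h were 26, 88 and 60, so counting error is not small. The difference between the conditions in the 3 h change was −3.03 on the log2 scale (SE 0.21, 95% interval −3.46 to −2.60, adjusted p = 9.76e-09, edgeR's interaction test on 12 libraries, added after the data were seen). The TCHX libraries share the siRNAs and replicate numbers with those that chose CCT3, so this p-value is not independent evidence either. In this comparison 0.792% of 13250 genes were called and 0.151% were called lower. The same difference in the T arm, which shares the 0 h libraries that chose CCT3 and is given as a description, was −2.23 (SE 0.17), where 0.832% of 12975 genes were called and 0.663% were called lower.

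CCT3 went on falling to 5 h in siCTU2. Its level was 1.73, 3.58 and 4.27 CPM in the T arm, a log2 change of −4.54 ± 0.64 from 0 h. With cycloheximide it was 0.811 and 1.18 CPM in replicates 1 and 2, from 8 and 14 counts, and 306.2 CPM in the library against its label. The mean change in that arm was −3.04 with that library and −5.75 without it. In siGL2 CCT3 was between 570 and 650 CPM at 5 h in both arms.

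None of the other 6 subunits was called for a difference in the 3 h change in the TCHX arm, where their values lay between 0.09 (CCT7) and 0.29 (CCT4), around the median over all genes of 0.15. In the T arm none of the 6 was called either, and the values lay between −0.10 and −0.02, around a median over all genes of −0.05. With the replicate block the number of genes called in the T arm rose from 108 to 196. Over 3 h the 6 subunits themselves changed by −0.41 to −0.24 in siCTU2 and by −0.36 to −0.21 in siGL2 in the T arm. All 12 of these values were above the median over all genes of their condition. In the TCHX arm this did not hold. In siGL2 TCP1, CCT2, CCT4, CCT5 and CCT6A (−0.53 to −0.50) were below the median of −0.49, and CCT7 (−0.38) was above it. In siCTU2 TCP1 (−0.36) and CCT6A (−0.35) were below the median of −0.33, and the others were above it. The signs in the T arm depend on the scale. With TMM scaling the median of the 6 subunits became 0.17 in siCTU2 and 0.20 in siGL2. CCT3 became 0.18 in siGL2 and stayed at −2.07 in siCTU2.

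**Figure D3:**
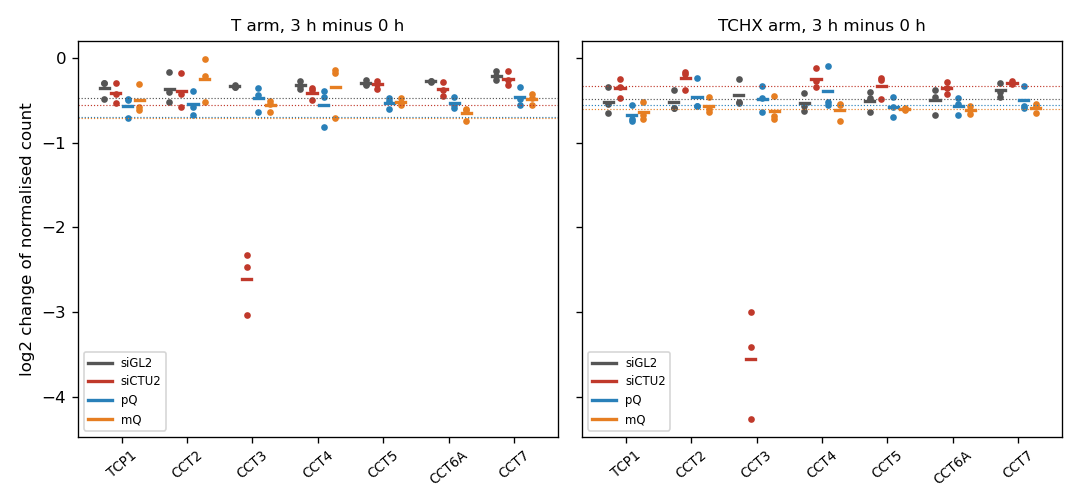
Log2 change of the normalised count from 0 h to 3 h (y axis) for each subunit in the T arm (left) and the TCHX arm (right), with a point per replicate, a bar at the mean of 3 and dotted lines at the median over all genes of each condition. CCT3 in siCTU2 lies between −4.26 and −2.33, and all other points lie between −0.82 and −0.01.

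The translation-dependent decay (TDD) index was computed by subtracting the normalised count under triptolide alone from that with cycloheximide added and dividing by the 0 h count, so that a positive value means that more mRNA was left when translation was blocked. After the study's methods a gene was called at an unadjusted p of at most 0.05 in a linear model. By that rule 8.16% of 12288 genes were called in siCTU2 against siGL2 (7.28% higher and 0.887% lower), none of them past an adjusted p of 0.05, and no subunit was called. CCT3 had an index of −0.0781 and −0.0336 in siCTU2 replicates 1 and 2 and of 2.37 in replicate 3, which rests on the library against its label. The difference from siGL2 was 0.788 (SE 0.829) with that library and −0.0401 without it, and −0.0602 from the 3 h libraries alone. The sign of the CCT3 difference is thus that of 1 library. The differences of the other 6 subunits lay between 0.0299 (CCT2) and 0.0902 (TCP1), around the median over all genes of 0.0697. They rest in part on the same library. At 5 h the siCTU2 index in replicate 3 was 0.362 for TCP1, 0.291 for CCT2, 0.346 for CCT4, 0.137 for CCT5 and 0.0868 for CCT7. In replicates 1 and 2 it was between −0.272 and 0.0373 for these 5. For CCT6A it was −0.0379 in replicate 3, within the range of replicates 1 and 2. The size and sign of these differences are therefore uncertain. In siGL2 all 7 subunits had a mean index below 0, from −0.109 (CCT7) to −0.0247 (CCT2), while the median over all genes was 0.0179.

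The genes whose level followed that of CCT3 most closely were sought over the 24 group means of log2(CPM + 1), among 9494 genes. They were RPA2, a subunit of the single-stranded DNA binding protein RPA (Pearson r = 0.993), G3BP2, a stress granule RNA-binding protein (0.989), CKAP4, an endoplasmic reticulum membrane protein (0.985), TMCO3 (0.985) and PIGX, an enzyme subunit of GPI anchor synthesis (0.983). Over the 23 groups without siCTU2 TCHX at 5 h, which holds the library against its label, r was 0.993 for RPA2, 0.989 for G3BP2, 0.983 for CKAP4, 0.983 for TMCO3 and 0.981 for PIGX. The points share the siCTU2 libraries, which carry almost all of the variation in CCT3, and no test is attached. No other TRiC subunit was among the 5 genes.

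All 5 of these genes were low in siCTU2 in the TCHX arm at 0 h, as a description. G3BP2 was at 8.67, 9.08 and 11.4 CPM against 100.2, 118 and 116 CPM in siGL2. RPA2 was at 25.3 ± 2.04 against 124 ± 6.51 CPM, and CKAP4 at 45.5 ± 3.21 against 320.1 ± 7.91 CPM (SD, n = 3). TMCO3 and PIGX were at 2.13 ± 0.401 and 12.7 ± 1.16 CPM against 16.1 ± 2.90 and 38.5 ± 2.80 CPM. Their difference in the 3 h change in the TCHX arm was −1.38 for RPA2, −1.40 for G3BP2, −0.08 for CKAP4, −0.75 for TMCO3 and −0.45 for PIGX. These libraries were among those that chose the 5 genes, so the values carry no test.

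These genes also differed in their match to the siRNAs. CKAP4 held the 8-base match to siCTU2#1 in its 3′ UTR. RPA2, in its coding sequence, and G3BP2, in its 3′ UTR, held the 7-base match to siCTU2#1. That match was present anywhere in the transcript in 24.2% of the genes searched. For siCTU2#2, TMCO3 shared a run of 15 bases, the longest found along with CDK5RAP2, RPA2 shared a run of 12, and PIGX held the 8-base match in its 3′ UTR. G3BP2 held the 7-base match to siCTU2#2 in its 3′ UTR, a match present anywhere in the transcript in 28.3% of the genes searched. The genes with the longest runs did not move one way. TMCO3 (−2.90) and IKZF4 (−1.06, a run of 14) were called lower, while CDK5RAP2 (0.32) and SLFN12 (0.63, a run of 14) were called higher. For siCTU2#1 the longest runs were of 13 bases, in BRWD1 (0.29, called), SEPTIN10 (0.46, called), HOOK2 (−0.77, called) and RILPL1 (−0.29, not called).

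Across all genes, a lower level went with a match to either seed. In the TCHX arm at 0 h, 19.6% of the 11676 genes with a transcript were called lower. Among the 870 genes with the 8-base match to siCTU2#1 anywhere in the transcript, the share was 31.8% (277 genes). Of these 870, 340 held the match in the 3′ UTR, and among them the share was 39.4% (134 genes). For siCTU2#2 the shares were 26.3% of 1306 and 30.5% of 584 genes. CCT3 held its match to siCTU2#1 in the coding sequence, and no share was computed for genes without a match in the 3′ UTR. Genes more than 8-fold lower, as CCT3 was, made up 0.180% of all genes (21 genes) and 0.920% of those with the 8-base match to siCTU2#1 (8 genes). Of those 8 genes, 6 held the match in the 3′ UTR. CCT3 itself is counted among the 21 and among the 8, and none of the shares is adjusted for transcript length. The 2 siRNAs were pooled in these cells, the shares carry no test, and whether either siRNA acted on CCT3 was not tested. The paper states that its siRNAs were designed to keep predicted off-targets to a minimum. It also compared the single siRNAs with the pool by RT-qPCR, for CTU2, ORC3, POLR1F, FABP5 and LIMK1 but not for CCT3.

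**Figure D4:**
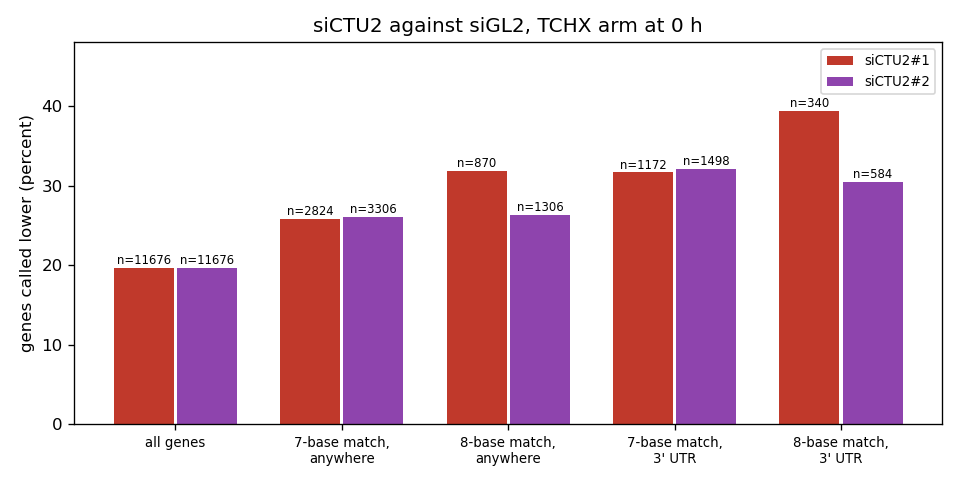
Share of genes called lower in siCTU2 against siGL2 in the TCHX arm at 0 h (y axis, percent), for all 11676 genes and for those that hold a 7-base or 8-base match to the seed of either siRNA anywhere in the transcript or in the 3′ UTR, with the number of genes above each bar. All 8 bars with a match, from 25.9 to 39.4%, stand above the 19.6% of all genes.

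The genes around CCT3 on chromosome 1 were also read. Of the annotated genes within 100 kb, 8 had at least 10 counts in a library and were tested in the TCHX arm at 0 h. SMG5, a factor of nonsense-mediated decay, was lower (log2 fold change −1.14, adjusted p = 9.59e-06, edgeR) and PMF1, a kinetochore gene, was higher (0.53, adjusted p = 0.000804). SLC25A44 (−0.13), GLMP (0.18), PAQR6 (−0.21), TMEM79 (0.25), TSACC (0.36) and the lncRNA MIR9-1HG (−1.09, adjusted p = 0.11) were not called. TSACC lies within the span of CCT3 on the other strand and had a mean of 15.7 counts. The strand setting of the counting is not given in the sources used here, so reads of the overlapping exons cannot be assigned by strand.

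The codons read by tRNAs that CTU2 helps to modify were counted in each coding sequence. AAA, GAA and CAA together made up 6.97% of the codons of CCT3, at the 52.6th percentile of 10831 genes, whose median was 6.61%. The share was 10.6% in TCP1, 10.8% in CCT2, 9.09% in CCT4, 8.32% in CCT5, 11.1% in CCT6A and 4.60% in CCT7. CCT3 thus had the second lowest share among the measurable subunits, above CCT7.

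The medium experiment gave a different pattern of the same subunits. At 0 h in the T arm, 4 of the 7 measurable subunits were lower in mQ than in pQ, where 24.8% of 12374 genes were called and 12.4% were called lower. CCT2 was at 362, 274 and 336 CPM in mQ and at 509, 579 and 486 CPM in pQ (log2 fold change −0.64, SE 0.12, adjusted p = 0.00285, edgeR's quasi-likelihood test). TCP1 was at 252, 289 and 246 CPM against 381, 379 and 348 CPM (−0.44, SE 0.10, adjusted p = 0.00946). In both genes every mQ library was below every pQ library. The share of all genes without overlap in this comparison was not counted, so a lack of overlap is a description here and below.

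CCT4 and CCT5 were lower by less. CCT4 was at 552, 516 and 578 CPM in mQ against 712, 716 and 665 CPM in pQ (−0.29, SE 0.09, adjusted p = 0.0344). CCT5 was at 761, 783 and 679 CPM against 945, 971 and 887 CPM (−0.28, SE 0.09, adjusted p = 0.0453). Again the groups did not overlap, as a description. CCT3 was at 456, 465 and 385 CPM against 536, 508 and 529 CPM, also without overlap, but was not called (−0.22, adjusted p = 0.136), and neither were CCT6A (0.04) and CCT7 (0.05), whose groups overlapped. The summed CPM of the 6 subunits other than CCT3 was 3323 ± 124 in mQ and 3983 ± 171 in pQ.

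The calls of CCT4 and CCT5 did not survive the loss of single libraries. CCT4 lost its call without mQ replicate 1 or without any one of the pQ replicates (adjusted p = 0.0607 to 0.136), and CCT5 without any one library other than mQ replicate 2 (adjusted p = 0.0709 to 0.171). TCP1 missed the threshold without pQ replicate 1 or 2 (adjusted p = 0.0541 and 0.0545), and without mQ replicate 2 CCT3 was called as well (adjusted p = 0.0276). CCT2 was called whichever library was left out. The number of subunits called lower thus ranged from 1 to 5.

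In the TCHX arm at 0 h, where 6.47% of 12521 genes were called (2.65% lower and 3.82% higher), TCP1 alone was called (−0.42, SE 0.09, adjusted p = 0.0236). Its level was 279, 299 and 261 CPM in mQ and 377, 386 and 374.7 CPM in pQ. The other values were −0.32 for CCT2 (adjusted p = 0.11), −0.30 for CCT5 (0.0682), −0.18 for CCT3, −0.06 for CCT6A, 0.03 for CCT7 and 0.05 for CCT4. The pQ group of this arm holds one of the 3 libraries with extra genes. Without it, a setting chosen after the data were seen, 20.1% of genes were called and 9.71% called lower, and TCP1, CCT2 and CCT5 were called lower (−0.42, −0.43 and −0.34). The difference between mQ and pQ for CCT4 was 0.05 with that library and −0.11 without it.

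No subunit was called for a difference between mQ and pQ in its 3 h change, in a comparison with few or no calls at all. In the T arm 0 of 12943 genes passed the adjusted p in edgeR, 1161 had an unadjusted p under 0.05 and DESeq2 called 45, none of them a subunit. Of 13298 genes in the TCHX arm, 1 was called (0.00752%, lower), and it was no subunit. The subunit differences in the T arm ran from −0.13 (CCT6A) to 0.29 (CCT2, 95% interval −0.08 to 0.66), and that of CCT4 was 0.19 (−0.21 to 0.60), so the intervals leave room for differences of that size. Over 3 h in the T arm the 6 subunits other than CCT3 changed by −0.65 (CCT6A) to −0.25 (CCT2) in mQ. In pQ they changed by −0.56 to −0.46. CCT3 changed by −0.56 ± 0.06 in mQ and by −0.48 ± 0.15 in pQ. The median over all genes was −0.70 in each. Under TMM scaling the median of the 6 turned to 0.24 in mQ and 0.17 in pQ. For the TDD index 4.79% of 12428 genes were called (3.48% higher and 1.3% lower), none past the adjusted p, and no subunit was called. The nearest was CCT6A, with a difference of 0.0918 (SE 0.0392, unadjusted p = 0.0517 in the linear model fitted to this gene).

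The joint variation of the subunits over the 24 group means was described by the correlation of each with the mean of the others, CCT3 left out of the mean. TCP1 (Pearson r = 0.877), CCT5 (0.833) and CCT2 (0.809) followed the other subunits, and so did CCT3 over the 18 groups without siCTU2 (0.858). CCT4 (0.330), CCT6A (0.176) and CCT7 (0.0856) followed them less. With replicates 1 and 2 only, the values were 0.906 for TCP1, 0.870 for CCT5, 0.857 for CCT2, 0.878 for CCT3, 0.703 for CCT4, 0.613 for CCT6A and 0.0849 for CCT7. The median r over 9489 genes was between −0.09 and 0 in each case. The points share libraries, depth and the 4 conditions and carry no test.

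Replicate 3 at 5 h moved the subunits apart from each other. In 6 of the 8 groups at 5 h, its CPM divided by the mean of replicates 1 and 2 gave a log2 ratio of −1.41 to −0.87 for CCT4, of −0.73 to −0.65 for CCT2 and of −0.63 to −0.10 for TCP1. For CCT6A the ratio was 0.25 to 0.53, and for CCT5 and CCT7 it stayed between −0.10 and 0.07. The remaining 2 groups, siCTU2 TCHX and mQ T, are those whose replicate 3 is one of the libraries with extra genes, and there the ratio was between −0.35 and 0.21 for all 6 subunits. Such gaps were not particular to these genes, as 23.3 to 32.6% of 1992 well-counted genes had a ratio below −0.5 in the 6 groups. This is why the changes over time are given at 3 h.

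**Figure D5:**
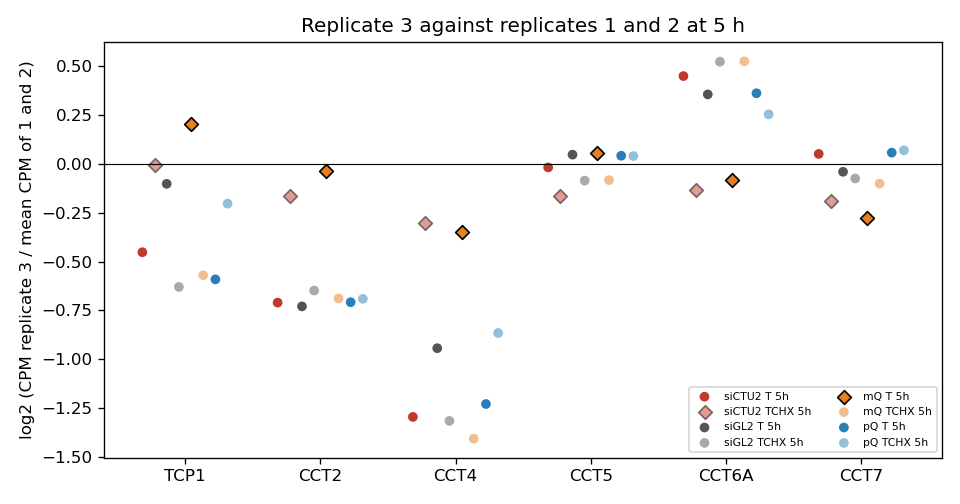
Log2 ratio of the CPM of replicate 3 to the mean CPM of replicates 1 and 2 at 5 h (y axis) for 6 subunits, with a point per group and diamonds for the 2 groups whose replicate 3 has extra genes. CCT4 lies between −1.41 and −0.87 in the 6 other groups and CCT6A between 0.25 and 0.53, while the diamonds lie between −0.35 and 0.21.

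Genes that act with TRiC were read from lists of co-factors and substrates. The shares called over all genes in the first comparison were 18.3% higher and 18.9% lower. In siCTU2 against siGL2 in the TCHX arm at 0 h, 3 of 12 actin and tubulin genes were higher (TUBA1C 0.42, TUBB6 0.40, ACTB 0.28) and 0 were lower. Of 6 other TRiC substrates, 4 were higher, among them the cell cycle regulator FZR1 (0.45), the histone deacetylase HDAC3 (0.41) and the G protein subunit GNB1 (0.24). Of 4 prefoldin subunits tested, PFDN2 was higher (0.22) and PFDN1 lower (−0.28), and of 3 phosducin-like genes TXNDC9 was lower (−0.56). Of 4 tubulin folding cofactors, TBCB (0.55) and TBCC (0.45) were higher and TBCA (−0.23) lower. Of 11 cytosolic heat shock genes, HSPB1 was higher (0.45), and DNAJA1 (−0.58) and HSPA8 (−0.62) were lower. Of the mitochondrial chaperones, which fold proteins in another compartment, HSPD1 was higher (0.22) and HSPA9 lower (−0.55). The median over each list lay between −0.28 and 0.50, that over all genes at −0.01, and 0 genes of any list were called for the 3 h difference in either arm. The T arm at 0 h, given as a description, differed for some of these genes. There TXNDC9 (−0.32), HSPA8 (−0.13), TBCC (0.12), FZR1 (0.33) and HSPD1 (0.13) were not called, and the kinase complex subunit MLST8 was called lower (−0.37). Of the 6 other substrates, 2 were higher and 1 lower in that arm.

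In mQ against pQ in the T arm at 0 h, 12.5% of all genes were called higher and 12.4% lower, and the list counts were not tested against these shares. All 3 phosducin-like genes were lower (PDCL3 −0.83, PDCL −0.76, TXNDC9 −0.71), as were 2 of 4 prefoldin subunits (PFDN4 −0.57, VBP1 −0.49). Of 11 actin and tubulin genes, 8 were lower, including TUBA1C (−0.68) and TUBA1B (−0.40), and TUBB2B was higher (1.41). Of 11 heat shock genes, 6 were lower and 0 higher, led by HSPA8 (−2.32), DNAJA1 (−1.21) and HSPH1 (−0.56). Other substrates split, with VHL (0.68) and MLST8 (0.51) higher and 2 genes lower, including HDAC3 (−0.55). TBCA was the only tubulin folding cofactor called of 4 (−0.34, with a list median of 0.09) and HSPE1 the only mitochondrial chaperone of 3 (−1.06). In the TCHX arm, 0 of 3 phosducin-like genes and 0 of 5 prefoldin subunits were called, while 5 of 12 actin and tubulin and 7 of 11 heat shock genes were lower, against 2.65% of all genes. Without pQ replicate 3, where 9.71% of all genes were called lower and 10.4% higher, 1 of 3 phosducin-like genes was lower, and of 5 prefoldin subunits 2 were lower and 1 higher. In that setting 9 of 12 actin and tubulin genes were lower and 1 higher, and 8 of 12 heat shock genes were lower and 1 higher. Tubulin and actin genes and HSPA8 have near-identical copies, so their counts are uncertain.

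CCT8, the theta subunit gene on chromosome 21 (29055805 to 29073797, minus strand), could not be read in any condition. It had at most 15 counts in a library, with a median of 0.0833 CPM. The protein-coding genes beside it were as low, and LTN1, RWDD2B, USP16, CCT8 and MAP3K7CL formed a run of 5 genes with a mean under 5 counts each (1.68 for CCT8). On either side of the run N6AMT1 had a mean of 99.5 counts and BACH1 of 173. No statement on the level of CCT8 is made from these counts.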

How the data were processed

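The deposited file held raw read counts per gene for 72 libraries, and every sample column was matched to a title (0 were left over). Per the labels and the study's methods, the authors used only forward QuantSeq reads. Tools named in the submitters' processing notes were fastp 0.20.1, HISAT2 2.2.1 and HTSeq 0.13.5, with the build GRCh38.p13. The sources used here name no molecular identifiers, and PCR copies were not removed here. ERCC spike-ins were not used here.

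The subunits and gene lists, and the rule for naming genes, were chosen with earlier results of these data known. By that rule the text names the 8 subunits, CTU2, up to 3 called genes per co-factor or substrate list with the smallest p, the 5 genes most correlated with CCT3, genes with 10 counts in a library within 100 kb of CCT3 and those with the longest runs shared with an siRNA.

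Groups and replicate numbers came from the sample titles. Counts were analysed in R 4.3.3 with edgeR 4.0.16 (filterByExpr, TMM, quasi-likelihood F-test, Benjamini-Hochberg over all genes, threshold 0.05), separately for each pair of groups at 0 h. Changes over time used size factors from stable genes (CPM above 0.2 at 0 h and at least 1.1 times that CPM at 3 or 5 h, with the 0 h CPM above 0.1 of the later one, in every replicate and arm, which gave 198 genes in the siRNA and 82 in the medium experiment) and a pseudocount of 0.5. For the TDD index, genes needed 10 normalised counts on average at 0 h, and condition, time and replicate were the terms of the linear model. DESeq2 1.42.0 was an alternative. In the siRNA experiment same-numbered libraries deviated together (r of 0.105 to 0.299 over 8448 to 8457 genes, each pair above 0.1). The largest r between differently numbered libraries was 0.0854 in the T arm and 0.0366 in the TCHX arm. The main edgeR fits nevertheless had no replicate term, and the replicate block was run as an alternative. The scripts were tested on simulated data with 200 changed genes, of which 100% were recovered for the 0 h TCHX comparison of 12571 genes, 79.5% for the 3 h difference (12645 genes) and 99.5% for the TDD index (12255 genes).

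siRNA sequences were read from the study's siRNA table, and sites, transcripts and coordinates from GENCODE release 44 on GRCh38, with 1 transcript per gene. Of 12507 genes tested, 93.4% had one. The authors counted on NCBI's annotation. The search read both the 7-base seed match and the 8-base match on the mRNA strand.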

Additional observations from a re-analysis of the deposited data

Results flagged for a closer look

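The change in CCT3 over 3 h of triptolide differed between siCTU2 and siGL2 cells. The difference on the log2 scale was −3.03 in the TCHX arm, by an interaction test added after the data were seen. It was −2.23 in the T arm, whose 0 h libraries were also those that chose CCT3. All 3 siCTU2 replicates fell by more than every siGL2 replicate in each arm.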

How the results depend on the processing

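CCT3 kept its direction and its call in siCTU2 against siGL2 in all 10 alternatives run for the 0 h TCHX comparison (−3.75 to −3.60). For the difference in 3 h change in the T arm it kept its direction in all 11 alternatives (−4.22 to −2.06). Apart from the alternative in the TCHX arm, those fits share the T arm and its choice of CCT3, so they are a description and not a further test. Scaling to library composition (TMM), passing the stable-gene rule at both times, the 5 h libraries, DESeq2, no count filter and leaving out replicates were planned. The TCHX arm for the 3 h differences, 5 h without replicate 3, 3 h alone for the TDD index and leaving out the libraries that stand apart were chosen after seeing the data. The causes of the changes below were not tested.

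With the replicate block, 2 subunits were called lower at 0 h in the siCTU2 TCHX arm (1 without it). In mQ against pQ the block left 2 of the 4 subunits called, but there the same-numbered libraries did not deviate together (r of 0.136, −0.166 and −0.149), so the numbers are not a pairing. The block gave 196 genes called in the siCTU2 3 h difference and 7 in the mQ one, and changed no other call of a subunit at 0 h in the siRNA experiment.

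In the TCHX arm 1 subunit and 810 genes were called in mQ against pQ, and CCT4 (0.048) and CCT6A (−0.061) changed sign. Without pQ replicate 3 in that arm CCT6A was −0.078 and CCT7 −0.025. Leaving out 1 replicate in the T arm gave 1 to 5 subunits and 1476 to 3319 genes called, and CCT6A from −0.020 to 0.099. In the siCTU2 TCHX arm it gave CCT5 from −0.0062 to 0.092, CCT6A from −0.027 to 0.045 and CCT7 from −0.012 to 0.036, none called.

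For the siCTU2 3 h difference 59 genes were called with stable genes required at both times, 29 at 5 h, 174 in DESeq2 and 198 without a filter, and 23 to 69 when a replicate was left out at 3 h, and 223 at 5 h without replicate 3. For mQ the counts were 50 with stable genes at both times, 45 in DESeq2, 190 without a filter, 1 in the TCHX arm with or without replicate 3, 234 at 5 h without replicate 3 and 0 to 106 when a replicate was left out at 3 h. In the last, CCT3 ran from −0.18 to 0.0096.

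Under TMM scaling the 3 h change in the T arm became positive except for CCT3 in siCTU2. The median of the 6 other subunits was 0.17 in siCTU2, 0.20 in siGL2, 0.24 in mQ and 0.17 in pQ, and CCT3 was −2.07, 0.18, 0.17 and 0.23. With stable genes at both times the medians were −0.68, −0.76, −1.10 and −0.86, and CCT3 was −0.79 in siGL2, −1.17 in mQ and −0.80 in pQ. At 5 h the medians were −0.58 in siCTU2, −0.38 in siGL2 and −0.34 in mQ, and CCT3 was −4.54 in siCTU2 and −0.35 in mQ. At 5 h without replicate 3, CCT3 was −4.61 in siCTU2, −0.23 in siGL2, −0.39 in mQ and −0.27 in pQ, and the median of the 6 was −0.26 in siGL2, −0.33 in mQ and −0.34 in pQ. Leaving out a replicate at 3 h gave CCT3 from −2.75 to −2.40 in siCTU2, −0.34 to −0.33 in siGL2, −0.59 to −0.52 in mQ and −0.54 to −0.39 in pQ.

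For the TDD index in siCTU2 against siGL2 the CCT3 difference was −0.0602 at 3 h alone, −0.0401 without the libraries that stand apart and −0.0420 to 1.23 when a replicate was left out, and CCT6A was −0.0747 under TMM. Genes called numbered 543 with stable genes at both times, 2208 with each arm divided by its own 0 h library (1 subunit higher) and 480 to 1251 without a replicate. In mQ against pQ they numbered 3171 with stable genes at both times (5 subunits higher), 2812 with own 0 h libraries (2 subunits lower, CCT3 at −0.0772), 955 at 3 h alone, 1732 without the libraries that stand apart and 381 to 1596 without a replicate (0 to 1 subunit higher, CCT3 from −0.0198 to 0.0670). Without the replicate block 1 subunit was higher. At low depth the 8 and 14 counts of CCT3 in siCTU2 at 5 h limit its level there.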
